A study of Rattus norvegicus with 12 samples.

Results

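The comparison described here asked whether carrying human DNMT3A changed transcript levels in the same way in the brain and in the testis of the rat. All 12 libraries of the series entered it, in 4 groups of 3: wild-type brain, hDNMT3A brain, wild-type testis and hDNMT3A testis. Every sample came from an adult male Sprague Dawley rat of 15 weeks. The transgenic groups carried hDNMT3A, a human-derived DNMT3A transgene, and the control groups were wild type. The sources used here do not give the promoter of the transgene, the number of founder lines or the part of the brain sampled. Of the 25908 genes in the deposited table, 10917 (42.1%) averaged 1 FPKM or more in the 6 brain libraries and also in the 6 testis libraries, and these were tested. FPKM scales the fragments of a gene by its length and by the library total, so it is a share of a library and not a number of molecules per cell. A further 2910 genes reached that level in brain only, 3655 in testis only and 8426 in neither, and no interaction was computed for them.

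DNMT3A is an enzyme that methylates cytosines in DNA that carried no methyl group before, mostly where a cytosine stands before a guanine. Methylation of a promoter often goes with silence of the gene, while methylation inside a transcribed gene often goes with its activity. In the brain DNMT3A is known for the methylation laid down in neurons after birth, and in the germ line for the parental imprints set during the development of sperm. A gene that both tissues transcribe may stand in a different methylation context in each of them, and an interaction test compares the tissues gene by gene.

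The deposited table names genes by Ensembl identifiers, and the reference table used for names matched 0 of the 25908, so the files do not pair them. Rat Dnmt3a, the pathway lists and the marker lists were therefore not analysed here, and no tissue label was checked against named markers. No sequence is shown, for the same reason. The identifiers printed are the 2 with the largest positive and the 2 with the largest negative interaction among the genes called. All other genes are described in classes.

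Depth, worked back from the smallest steps between FPKM values, ran from 14004547 to 16112149 reads per library. A set of 203 genes abundant in testis and near 0 in brain, defined under the processing of the data, stood at 1.59% of its testis level in wild-type brain replicate 2, against 0.0511% to 0.33% in the other brain libraries. That library also had the lowest mean correlation with its own group (r = 0.965 across genes), against 0.968 to 0.984 in the other brain libraries and 0.984 to 0.99 in testis, where transgenic replicate 3 was lowest. Labels number the samples but do not say that they came from separate rats, so the spread behind each p-value may be technical. In bulk tissue, fewer cells of a type and less RNA per cell cannot be told apart.

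The interaction was the transgenic-minus-wild-type difference in brain minus the same difference in testis, on the log2(FPKM + 0.5) scale. A positive value means that the difference was higher in brain, and a negative value that it was higher in testis. With limma and a Benjamini-Hochberg adjusted p under 0.05, the interaction was called for 46 of the 10917 genes, which is 0.421% of them, 15 positive (0.137%) and 31 negative (0.284%). This count takes the brain and testis samples as independent, which the labels do not settle. If same-numbered samples of a genotype shared a rat, the fit with a block for each rat applies, and it called 1 gene, which was none of the 4 named ones. At an unadjusted p under 0.05 there were 878 genes (8.04%). Sizes of the called interactions ran from 0.46 to 3.74 with a median of 1.05, 26 reached 2-fold and 6 reached 4-fold. Of all genes tested, 2.27% had an interaction of at least 2-fold. Over all genes tested, the 95% interval of an interaction had a median width of 0.37 to either side of its estimate, before adjustment over genes. The smallest called size was 0.46, and 222 interactions of at least 2-fold were not called, so interactions of that size could also be missed.

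Each called gene was then placed by where the genotypes differed, with both tissues tested in the fit of all 12 libraries, so that the tissues and the interaction rest on the same spread. In that fit the genotypes differed in 128 of the 10917 genes in testis (1.17%), 73 higher (0.669%) and 55 lower (0.504%), and in 34 in brain (0.311%), 11 higher (0.101%) and 23 lower (0.211%). The testis split was 55 higher and 57 lower with median-ratio scaling. Without single libraries the testis count fell to between 67, without wild-type testis replicate 3, and 109, while the brain count ran from 10, without transgenic brain replicate 3, to 85, without wild-type brain replicate 3. Of the 46 interaction genes, 33 differed between genotypes in testis and were not called in brain, 8 differed in brain and were not called in testis, 2 differed in both in the same direction, and 3 were called in neither. None was called in both tissues with opposite directions. The 46 genes were chosen by the interaction itself, so these counts describe them and do not test where the effect lies.

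**Figure D1:**
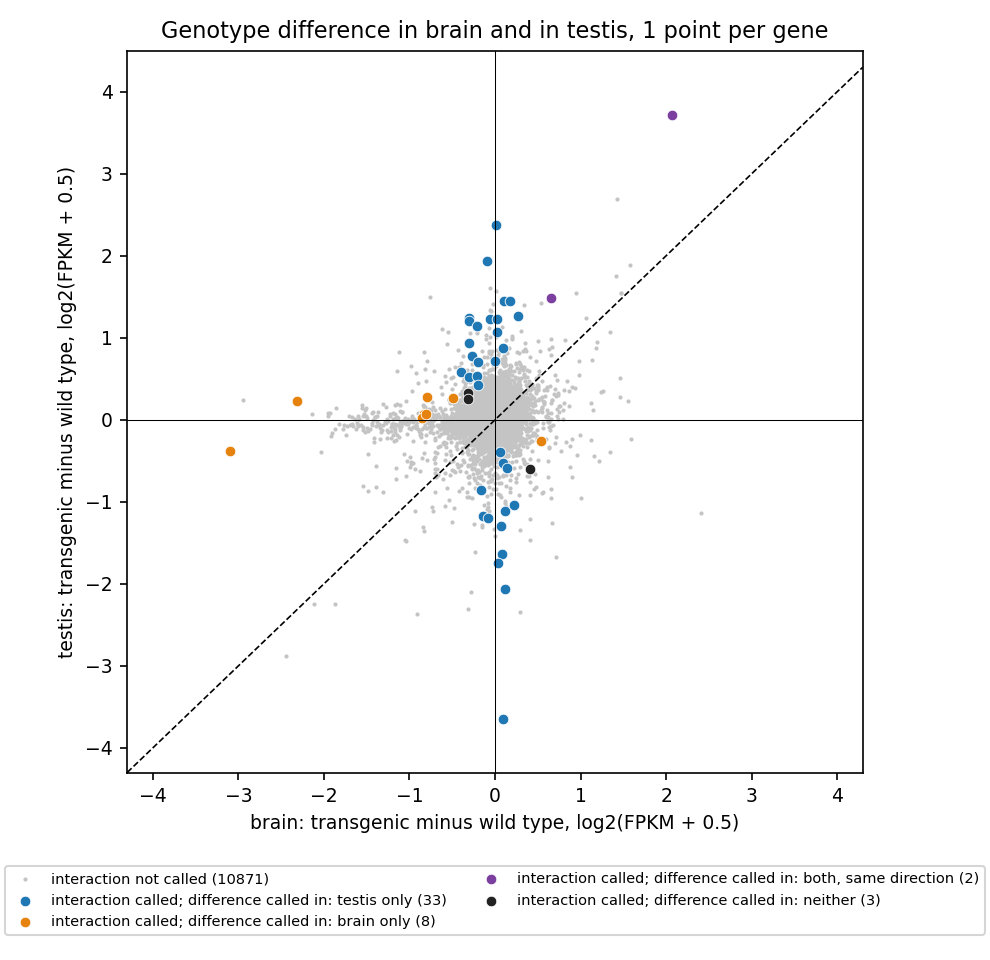
Transgenic-minus-wild-type difference in log2(FPKM + 0.5), with brain on the horizontal and testis on the vertical axis, with 1 point per gene for the 10917 genes tested and a dashed line where the differences are equal. Most of the 46 genes with the interaction called lie along the vertical axis, where 33 were called in testis only (blue), while 8 called in brain only (orange) lie along the horizontal one, 2 called in both are purple and 3 called in neither are black.

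The class called in testis only held 20 genes that rose and 13 that fell in transgenic testis. For the 20 that rose, the median difference was 1.11 in testis (0.42 to 2.38) and -0.14 in brain (-0.40 to 0.27). At least 2-fold differences in testis were reached by 11 of the 20 and a 4-fold one by 1. Their group means had a median of 2.72 FPKM in wild-type testis and 8.11 FPKM in transgenic testis, against 14.7 and 15 FPKM in wild-type and transgenic brain. Each median was taken on its own over the 20 genes, so the ratio between medians is not the median fold. Of the 20, 4 averaged under 1 FPKM in wild-type testis and passed the filter only through the transgenic group, so they had to differ. Against the wild-type testis mean, the median of these genes was 0.91, 1.15 and 1.00 higher in transgenic testis replicates 1, 2 and 3, and all 20 lay above it in each of the 3. These libraries also chose the genes, so their likeness is a description.

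For the 13 genes that fell in transgenic testis, the median difference was -1.18 in testis (-3.65 to -0.40) and 0.08 in brain (-0.17 to 0.22). A 2-fold difference was reached by 9 of the 13 and a 4-fold one by 2. Medians of the group means were 13.5 FPKM in wild-type and 3.08 FPKM in transgenic testis, against 30.8 and 34.1 FPKM in wild-type and transgenic brain. These medians too were taken group by group and can come from different genes. Of the 13, 2 averaged under 1 FPKM in transgenic testis and passed the filter only through the wild-type group, so they had to differ. All 13 lay below the wild-type testis mean in each transgenic testis library, with medians of -1.20, -1.21 and -1.26. As above, the same libraries chose these genes.

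ENSRNOG00000013389 had the largest positive interaction. Its level in brain was 52.6, 52 and 45.5 FPKM in wild-type replicates 1 to 3 and 59.5, 44.6 and 56.6 FPKM in the transgenic ones. The genotypes overlapped there, at 50 ± 3.94 and 53.6 ± 7.93 FPKM (SD, n = 3). In testis it stood at 10.3, 23.1 and 22.9 FPKM in wild type and at 1.67, 0.653 and 0.722 FPKM in transgenic rats. No transgenic value reached the lowest wild-type one, although wild-type testis replicate 1 was well below replicates 2 and 3. The testis difference was -3.65 (SE 0.30, limma adjusted p = 0.00016) and the brain difference 0.09 (95% interval -0.58 to 0.75). The interaction was 3.74 (SE 0.43, limma adjusted p = 0.0079). The testis values rest on 444 wild-type and 24 transgenic reads, a ratio of 18.6 scaled to depth with a counting interval of 12.3 to 29.4. In brain 1140 and 1272 reads gave a ratio of wild type to transgenic of 0.934 (0.862 to 1.01).

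ENSRNOG00000026128 had the next positive interaction by size, 2.18 (SE 0.25, limma adjusted p = 0.0079). Its brain values were 9.19, 9.68 and 9.86 FPKM in wild type and 11, 10.9 and 9.48 FPKM in transgenic rats, which overlapped. In testis the wild-type values were 10.8, 10.7 and 19 FPKM and the transgenic values 2.75, 2.91 and 2.55 FPKM. Wild-type testis replicate 3 was the high one there, and the transgenic libraries lay close together, at 2.74 ± 0.18 FPKM against 13.5 ± 4.77 FPKM (SD, n = 3). The testis difference was -2.06 (SE 0.18, limma adjusted p = 0.00017), and the brain difference of 0.12 had a 95% interval of -0.27 to 0.51. The fall thus stood in each transgenic testis library, and no like fall was seen in brain.

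The class called in brain only held 8 genes, 7 lower and 1 higher in transgenic brain. For the 7, the median difference was -0.83 in brain (-3.10 to -0.49) and 0.07 in testis (-0.38 to 0.28), and 2 of them differed at least 4-fold in brain. Their group means had a median of 6.19 FPKM in wild-type brain and 2.08 FPKM in transgenic brain, against 28.2 and 33.3 FPKM in testis. The wild-type and transgenic brain medians fell on different genes, so their ratio is not the median fold. Of the 7, 3 averaged under 1 FPKM in transgenic brain and passed the filter only through the wild-type group, so they had to differ. All 7 lay below the wild-type mean in each transgenic brain library, with medians of -0.95, -0.84 and -0.76. The same libraries chose these genes too, so this is a description. The 1 gene that rose differed by 0.54 in brain and -0.25 in testis.

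The higher level of the 203 testis-abundant genes in wild-type brain replicate 2 goes in the direction of the difference of the 7 genes. That level was on average 0.549 percentage points of their testis level higher in wild-type than in transgenic brain. The same share of each gene's own testis level would equal a median of 1.52% and at most 18.7% of the difference of their brain means, and over 10% for 2 of the 7. Its part in these differences was not tested. Without wild-type brain replicate 2 the interaction was called for 35 genes, 33 of them among the 46.

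ENSRNOG00000058047 had the largest negative interaction. In wild-type brain it stood at 4.28, 5.08 and 4.79 FPKM (37, 41 and 42 reads). In transgenic brain it had 0, 1 and 2 reads, or 0, 0.111 and 0.229 FPKM. Its level in testis was 2.05, 2.26 and 1.85 FPKM in wild type and 2.07, 1.64 and 0.862 FPKM in transgenic rats, with replicate 3 the lowest and the groups overlapping. Reads of wild type over transgenic gave a ratio of 41.7 in brain (95% counting interval 13.9 to 205) and of 1.36 in testis (0.886 to 2.1). These intervals did not overlap, but they cover counting error only and leave out the spread between libraries. The fitted brain difference of -3.10 depends on the pseudocount at so few reads. In brain the gene passed the filter only through the wild-type group, so a difference there was built in. The interaction was -2.72 (SE 0.32, limma adjusted p = 0.008), and ran from -2.06 to -4.59 over 26 alternatives.

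ENSRNOG00000001249 was also lower in transgenic brain. Wild-type brain replicates 1 to 3 held 7.18, 19.1 and 13.3 FPKM and the transgenic ones 1.62, 2.25 and 2.37 FPKM. The wild-type libraries spread widely, with replicate 2 the highest, yet the lowest of them lay above the highest transgenic one. Testis values were 26.8, 29.3 and 28.7 FPKM in wild type and 31.8, 33.1 and 35 FPKM in transgenic rats, so that here each transgenic library was the higher. Group means were 13.2 ± 5.96 and 2.08 ± 0.406 FPKM in brain and 28.2 ± 1.33 and 33.3 ± 1.64 FPKM in testis (SD, n = 3). The brain difference was -2.32 (SE 0.26, limma adjusted p = 0.0038), the testis difference 0.23 (95% interval -0.34 to 0.80), and the interaction -2.55 (SE 0.37, limma adjusted p = 0.015). The share above of its testis level would equal 1.52% of its brain difference.

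**Figure D2:**
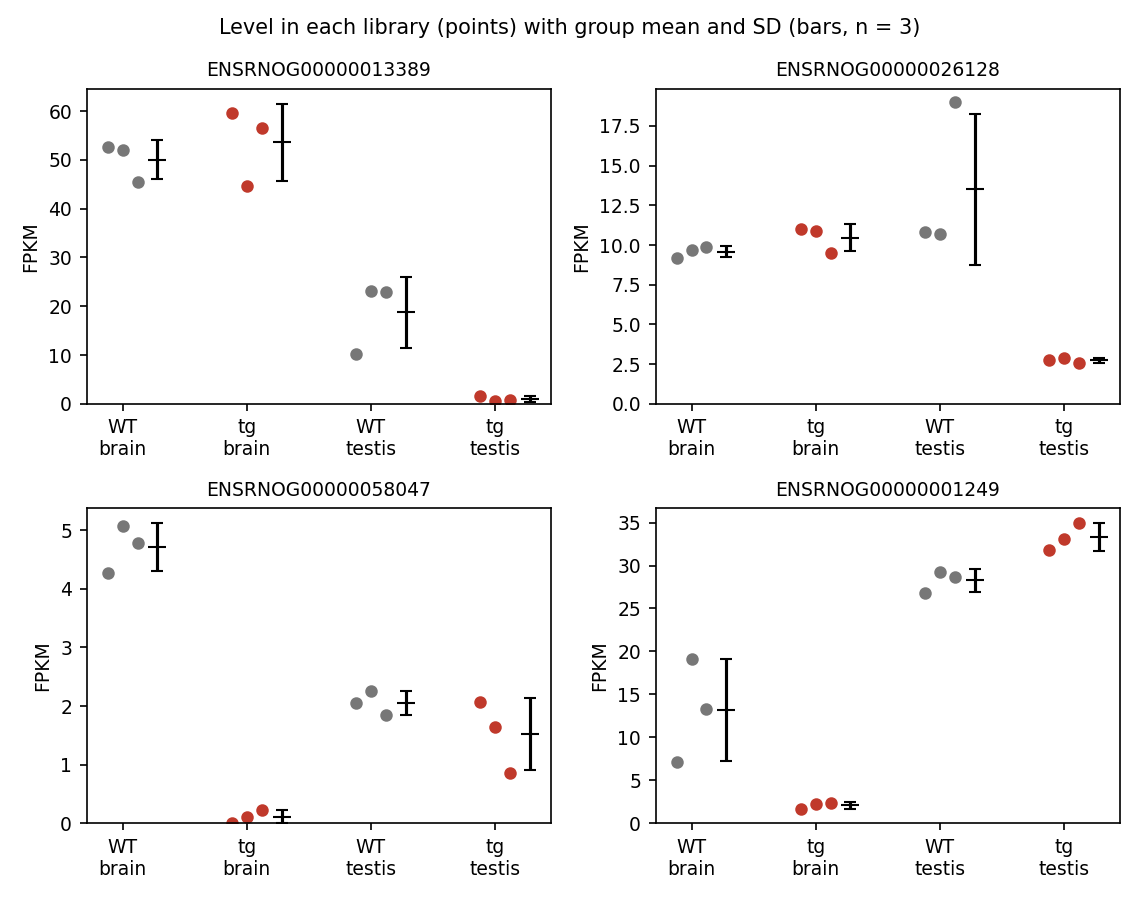
FPKM of the 4 named genes in each library, with grey points for wild-type and red points for transgenic (tg) libraries and the mean and SD of each group of 3 beside it. For the upper pair the transgenic values are the lower ones in testis and the genotypes overlap in brain, and for the lower pair the transgenic values are the lower ones in brain.

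The 2 genes called in both tissues were higher in transgenic rats in each. Their differences were 0.65 and 2.07 in brain and 1.48 and 3.71 in testis, both of the same sign. For 1 of them the wild-type means were under 1 FPKM in both tissues, so it passed the filter through the transgenic groups and its fitted differences depend on the pseudocount. Neither kept its interaction call without each library in turn.

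Estimates had opposite signs in the tissues for 32 of the 46 genes, 20 of them lower in brain and higher in testis and 12 the reverse. Over all genes tested, 46.2% had opposite signs. The genotypes were apart in every library for 42 of the 46 genes in testis and for 26 in brain, against 17.2% and 12.8% of all genes tested. For 17 of the 46 they did not overlap in either tissue and moved in opposite directions, against 1.16% of all genes tested, and for 5 they did so in the same direction, against 1.86%. The 17 were 11 genes lower in transgenic brain and higher in transgenic testis and 6 the reverse. An interaction test selects such genes, so the share among the 46 is a description. Their median size was 0.31 in brain and 0.53 in testis, with 10 of the 17 called in testis only, 4 in brain only and 3 in neither tissue. The 3 called in neither were the 3 of that class, with interactions from -0.65 to 1.01. None of the 17 passed the adjusted threshold in both tissues, and over all genes tested the same direction was the more frequent one.

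**Figure D3:**
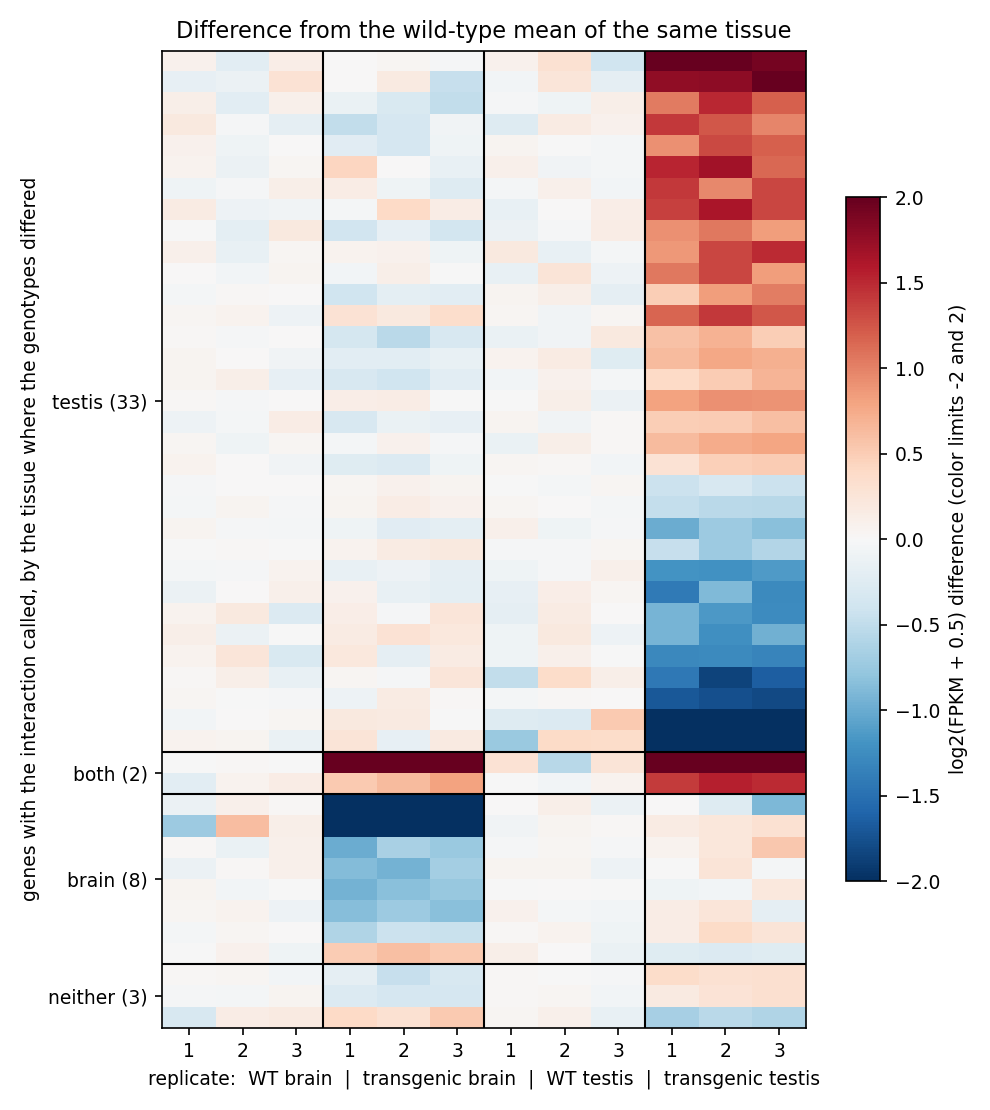
Difference of each library from the wild-type mean of its tissue, in log2(FPKM + 0.5), for the 46 genes with the interaction called (rows) in the 12 libraries (columns, by replicate within wild-type brain, transgenic brain, wild-type testis and transgenic testis). Red is higher, blue is lower and color stops at 2 in size. In the top block the 33 genes called in testis change in the 3 transgenic testis libraries and stay pale in brain, and in the block of 8 called in brain the transgenic brain libraries change.

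Level and length of the 46 genes were set beside those of all genes tested. The median over the brain libraries was 13.8 FPKM for the 46 and 12.6 FPKM for all, and over the testis libraries 10.6 and 9.88 FPKM. The mean was higher in brain than in testis for 28 of the 46 (60.9%) and for 57.3% of all. Within the testis class it was higher in brain for 15 of the 20 that rose and for 10 of the 13 that fell, that is 75% and 76.9%. A 10-fold or larger gap between the tissues was seen for 9 of the 46 (19.6%) and for 14.1% of all. Gene length, as recovered from the FPKM values, had a median of 2135 bp among the 46 and 2243 bp among all, and 12 of the 46 (26.1%) were under 1000 bp, against 14% of all. Of these 12, 8 were among the 20 that rose in testis and 1 among the 13 that fell. A group with a mean of fewer than 10 reads per library was present for 5 of the 46 (10.9%) and for 3.51% of all, so the estimates of these 5 rest on few reads. Spread within groups was similar, with median SDs of 0.0966 to 0.139 in the 4 groups for the 46 and 0.103 to 0.13 for all.

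The interaction was also read against the genes where the tissues did not differ by the test. Of the 128 testis calls, 35 had the interaction called and 93 did not. In the 35, the median size was 1.18 in testis and the brain estimate in the direction of testis had a median of -0.08. In the 93, these were 0.68 and 0.08, and 59 had the same sign in brain. Of the 34 brain calls, 10 had the interaction called, with a median size of 0.82 in brain and a testis estimate in that direction of -0.07. The other 24 had 0.96 and 0.34, and 18 of them had the same sign in testis. Over all genes tested, 46.2% had opposite signs in the tissues. The interaction is itself the brain difference minus the testis one. Splitting the genes by its call therefore sets these medians apart, and they are a description. A missing interaction call does not show an equal effect, since the 95% interval allowed 0.37 to either side for the median gene.

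The mean of the brain and testis differences uses the same libraries but is orthogonal to the interaction. It was called for 88 of the 10917 genes (0.806%), 45 higher (0.412%) and 43 lower (0.394%) in transgenic rats, and for 44 to 75 genes without single libraries. Of these, 27 also had the interaction called, 8 were called in both tissues, 46 in testis only, 11 in brain only and 23 in neither. The 8 genes called in both tissues all had the same direction, and 2 of them had the interaction called.

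Leaving out libraries changed how many interactions were called. The count was 34, 35 and 36 without wild-type brain replicate 1, 2 and 3, and 25, 31 and 29 without the transgenic ones. In testis, leaving out the wild-type libraries gave 41, 33 and 28 genes and leaving out the transgenic ones gave 44, 27 and 36. Each of these lists shared 24 to 36 genes with the 46. Without transgenic testis replicate 2 the split was 13 positive and 14 negative. Of the 46 genes, 22 were called without each of the 12 libraries in turn, 8 positive and 14 negative. These were 17 of the 33 called in testis only, 4 of the 8 called in brain only and 1 of the 3 called in neither, and they included all 4 named genes. Their median size was 1.27, against 0.96 for the 24 genes that lost the call at least once. The call was lost in 7 or more of the 12 leave-outs for 18 of the 46. No interaction of the 46 changed sign in any of the 27 alternatives. These genes were chosen for their interaction in the same libraries, so the kept signs are a description.

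**Figure D4:**
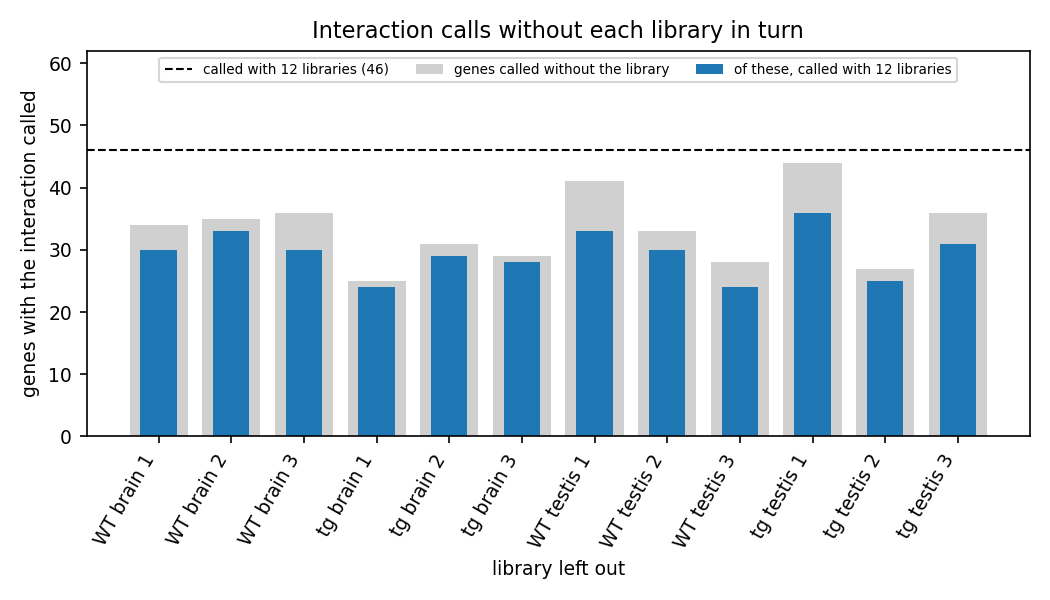
Number of genes with the interaction called when each library is left out (grey bars), with those among the 46 genes of the 12-library fit (blue bars) and 46 as a dashed line. The count ranges from 25 without transgenic brain replicate 1 to 44 without transgenic testis replicate 1.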

How the data were processed

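Total RNA of 12 samples was taken up in Trizol and made into libraries with an Illumina TruSeq kit, per the labels' protocols. The authors deposited 1 table of FPKM values. The submitters' processing notes name Bowtie 1.0.1 and the build Rnor_6.0. The counting tool, annotation and strand setting were not given, so overlapping genes and near-identical copies are uncertain. The table for names (47357 genes, assembly GRCr8) matched 0 identifiers, so 15 pathway lists, 13 marker lists and promoter CpG were not analysed here.

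Reads came out as whole multiples of 1 read for 1 gene length, within 0.002 reads, in 100% of genes. Intervals of read ratios (exact Clopper-Pearson, 95%) cover counting error only. limma 3.58.1 in R 4.3.3 was fitted to log2(FPKM + 0.5), with 4 group means, an intensity trend and no replicate block, for genes averaging 1 FPKM or more in each tissue. Tests were two-sided, adjusted by Benjamini-Hochberg over all of them, with a threshold of 0.05. This scale understates fold changes of low genes. Python 3.11.15 did the rest, and the scripts were tested on simulated reads. Testis-abundant genes averaged 100 FPKM or more in testis, with a brain median of 0.5 FPKM or less. Named identifiers are the 2 largest called interactions in each direction. Members, lists and alternatives were chosen with earlier results of these data known.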

Additional observations from a re-analysis of the deposited data

Results flagged for a closer look

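A difference between tissues in the genotype effect is what drew attention to 5 results, each by limma's interaction test. The count of genes with the interaction called was 46 of 10917. For ENSRNOG00000013389 the interaction was 3.74 on the log2 scale, with a lower level in transgenic testis, and for ENSRNOG00000026128 it was 2.18, also from testis. It was -2.72 for ENSRNOG00000058047 and -2.55 for ENSRNOG00000001249, both from a lower level in transgenic brain. Each of the 4 genes kept its call without each of the 12 libraries in turn. In the same order, their limma adjusted p-values ran up to 0.0345, 0.0345, 0.0345 and 0.0461 over the alternatives other than the block by genotype and number, where the calls were lost.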

How the results depend on the processing

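All alternatives, among them the one without 2 libraries that stood apart in earlier results, were chosen with those results known. Interaction genes numbered 30 with a mean of at least 5 FPKM, 87 with array weights per library, 84 at an adjusted p under 0.1, and 29 without wild-type brain replicate 2 and transgenic testis replicate 3 together, against 46. The other alternatives that kept all libraries and had no block gave 38 to 69 genes. Without single libraries, interaction genes ran from 25 to 44, brain genes from 10 to 85, testis genes from 67 to 109 and genes of the average from 44 to 75. Brain genes, 34 in the fit as reported, were 16 at 5 FPKM, 65 with array weights and 58 at 0.1. Without wild-type brain replicate 3 they numbered 85, 69 of them lower. Testis genes, 128 as reported, were 224 without a filter, 74 at 5 FPKM, 256 with array weights and 202 at 0.1. Their split of 73 higher and 55 lower was 55 and 57 with median-ratio scaling within tissue, so which direction held more genes depended on the scaling. Average genes, 88 as reported, were 133, 49, 173 and 180 in those 4 settings. The causes were not tested. Gene lists and promoter CpG were not run, since no names were matched.

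In a replicate block by genotype and number, which takes each number as 1 rat, the interaction was called for 1 gene. The 4 named genes had limma adjusted p-values of 0.0667, 0.0667, 0.0955 and 0.083 there. Their interactions were of the same size as without the block. SEs were 0.37, 0.21, 0.38 and 0.29, against 0.43, 0.25, 0.32 and 0.37 without it. That block fits a level for each rat, so fewer values remain to estimate the spread. With the replicate number alone as a block the interaction was called for 31, with 21 brain, 88 testis and 54 average genes. Deviations of same-numbered brain and testis libraries correlated from -0.00592 to 0.183 across genes, and at over 0.1 for 1 of the 6 pairs. Low correlations between different tissues cannot tell whether those samples shared a rat. The fit as reported had no block because the labels tie no rat to a number across groups. Of the 6 brain libraries 4, and of the 6 testis libraries 3, correlated best with their own number.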

Other observations

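Among genes that were not called, 222 had an interaction of at least 2-fold, 164 negative and 58 positive. Of the 164, 104 were at least 10-fold higher in testis than in brain, and 103 of these had their highest brain value in wild-type brain replicate 2, the library with the most testis transcripts. Of the 58 positive ones, 1 was at least 10-fold higher in testis. Over all genes tested, 805 of 10917 were at least 10-fold higher in testis, and 24.9% had their highest brain value in wild-type brain replicate 2. That share was not computed for the 805 alone. Including called genes, interactions of at least 2-fold numbered 180 negative and 68 positive with all libraries, among 10917 genes tested. Without wild-type brain replicate 2 they numbered 84 negative and 83 positive among 10763 genes, as the filter was applied again. The sets of genes differ, so these counts do not show how far the estimates changed. Among the 46 called genes, 8 had their highest brain value in wild-type brain replicate 2. The cause of these patterns was not tested.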
